A study of Mus musculus with 50 samples.

Results

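Genes of pre-mRNA splicing and of ribonucleoprotein complexes were followed in the hypothalamic paraventricular nucleus (PVN) of 2 mouse strains. They were taken by name from the annotation of the array, as every clone whose name begins with splicing factor, small nuclear ribonucleoprotein, heterogeneous nuclear ribonucleoprotein, LSM, U2 small nuclear, poly(rC) binding protein, pre-mRNA processing factor or DEAD. This took 84 of 22824 clones, under 53 names, of which 52 could be given a gene symbol. No clone name began with LSM. The 2 clones of the dead ringer homologs, now Arid3a and Arid3b, were caught by the letters DEAD and are transcription factors, and they are counted among the 84. The name of U2AF, the factor that recruits the U2 particle, does not say which of its subunits the 3 clones hold, so it is called U2AF here. Of the genes, 19 had several clones, 50 clones in all, which are numbered here in array order.

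The mice were male C57BL/6J and DBA/2J, 3 to 5 months old and single housed, and were killed without stress, or 4 h or 8 h after they had been forced to swim for 5 min. The PVN with the region next to it was micropunched, and for each of the 6 conditions the RNA of 6 animals was joined into 1 pool and amplified in 2 rounds. Each of 5 comparisons set 1 pool, the numerator, against another on 10 two-colour cDNA arrays, 5 in each dye orientation: non-stressed DBA/2J over non-stressed C57BL/6J, and in each strain 4 h and 8 h after swimming over non-stressed. The 10 arrays repeat the hybridisation of the same 2 pools, so standard errors (SE) and p-values cover labelling and hybridisation error and not the spread between animals. The 4 h and 8 h comparisons of a strain, and the comparison of the strains, share the non-stressed pools. In tissue of many cell types, fewer cells of a type and less RNA per cell cannot be told apart.

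Introns are removed from pre-mRNA by the spliceosome, which is built on each intron from small nuclear ribonucleoproteins (snRNPs), particles of small RNA with a shared ring of Sm proteins and proteins of their own. SR proteins, named for their arginine and serine repeats, bind exons and recruit the snRNPs to nearby splice sites, whereas hnRNP proteins coat the transcript and often oppose that choice. RNA helicases of the DEAD and DEAH families drive the rearrangements, and neurons use alternative splicing widely, among others in channels and synaptic proteins.

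Values are log2 ratios of numerator over denominator in the direction of the labelled dyes, while the folds that the study published run the other way in each of the 5. A clone was called where its mean log2 ratio was at least 0.5 either way, a fold of the square root of 2, with a Benjamini-Hochberg adjusted p of limma under 0.05 over all 22824 clones. With the sign turned, the log2 ratios of the members called in the 5 comparisons would be -1.28 for clone 3 of Pcbp2, -0.84 for Hnrnph2, 0.86 for Dhx15, 0.74 for clone 2 of U2AF, 0.65 for Prmt2, 0.56 for clone 1 of Srsf2, 0.51 for clone 2 of Hnrnpk and 0.92 for Snrpn. Counts of higher and lower members would change places. The study reports real-time PCR of unpooled samples that gave the direction of its published folds for the stress-regulated genes it followed up. It also reports an up-regulation by in situ hybridisation, with those data not shown. Both methods covered responses to swimming, not the comparison of the non-stressed strains, and no member. Which direction is right was not tested here. If it is the published one, every higher and lower given here by the dye labels is reversed.

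Most clones were dim on these arrays. Spots without DNA, the empty spots, gave a background level, set at their 95th percentile on each array. Between 3 and 38 of the 84 clones exceeded it in both channels on every array of a comparison, the most in C57BL/6J at 4 h (45.2%, against 25.1% of all clones) and the fewest in DBA/2J at 8 h (3.57%, against 4.18%). In the other 3 comparisons the members also exceeded it more often than all clones, and 50 to 57 of the 84 were brighter than the median clone. The ratios of the 84 clones in one dye orientation correlated weakly with those in the other, with Pearson's r between -0.14 and 0.17 across clones of the same 10 arrays, and between -0.26 and 0.12 over all clones. These r describe clones, which are not independent. Arrays were scanned on 10 days, none shared between comparisons, so a difference between comparisons and the scan day cannot be told apart.

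The sequences before the transcription start of 3 members called between the non-stressed strains show what these genes carry there, Dhx15 and Prmt2 lower and Hnrnph2 higher in DBA/2J. They are 150 bases from RefSeq, build GRCm38.p6, whose reference strain is C57BL/6J, and sequence of DBA/2J was not analysed here. Capitals mark CCAAT and GGGCGG, the letters of a CCAAT box and of a GC box, on either strand (ATTGG and CCGCCC on the other), and the motifs do not overlap each other. Dhx15 lies on the minus strand (chr5:52190547-52190696), Prmt2 on the minus strand (chr10:76237866-76238015) and Hnrnph2 on the plus strand (chrX:134601029-134601178), each read 5′ to 3′ on the strand of its gene.
Dhx15: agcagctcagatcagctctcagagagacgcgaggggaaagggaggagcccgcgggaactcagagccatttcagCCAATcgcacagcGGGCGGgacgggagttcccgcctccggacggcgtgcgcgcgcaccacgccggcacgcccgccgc
Prmt2: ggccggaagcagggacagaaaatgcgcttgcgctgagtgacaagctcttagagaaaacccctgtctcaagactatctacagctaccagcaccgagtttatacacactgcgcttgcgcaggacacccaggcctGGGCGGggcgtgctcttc
Hnrnph2: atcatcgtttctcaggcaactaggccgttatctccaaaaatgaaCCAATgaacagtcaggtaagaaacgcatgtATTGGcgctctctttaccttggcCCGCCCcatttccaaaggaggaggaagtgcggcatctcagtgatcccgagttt
The array's name for the clone of Dhx15 carries that gene's number but adds RNA helicase A, a name of Dhx9, so which of these genes the clone holds is not certain. RefSeq gave 57 promoters for 44 of the 52 symbols. CCAAT stood within 150 bases of the start in 20 of these 57 (35.1%), against 24.5% of all 32851 promoters, and GGGCGG in 34 (59.6%), against 28.6%. The median GC content, taken over 250 bases before the start, was 58.8% for the promoters of the members and 52.4% for all. Within 150 bases TATAAA was found in 4 (7.02%, against 7.57%). TGACGTCA, the letters of a cAMP response element, was found there in 2 (3.51%, against 1.36%). The full palindrome of the glucocorticoid response element was found in none of them and in 2 of all promoters. A match of letters is a description and not a binding site.

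Between the non-stressed strains, 6 of the 84 clones were called (7.14%), against 3.62% of all clones. In DBA/2J 2 were higher (1.60% of all clones) and 4 lower (2.02%). The higher clones were one of Pcbp2 and Hnrnph2, and the lower clones were Dhx15, Prmt2, one of U2AF and one of Srsf2. The median log2 ratio of the 84 was 0.07, against 0.01 over all clones, and the values ran from -0.86 to 1.28. Several cell type markers moved in the same comparison. Of 32 astrocyte clones 4 were higher in DBA/2J, all of Glul, of 26 oligodendrocyte clones 4 were higher (all of Mbp) and 2 lower (Cnp and Mobp), 2 of 7 blood cell clones were higher (Hbb-b1), and 1 of 28 neuron clones was lower (Nefh). Their part in the members' values was not tested.

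Among the SR proteins, Srsf2 (SC-35), which marks nuclear speckles and binds exonic enhancers, was lower in DBA/2J by its clone 1. Its log2 ratio was -0.77 on the lowest array, -0.61 at the median and -0.23 on the highest, below 0 on 10 of 10 arrays, with a mean of -0.56 (SE 0.13, limma adjusted p = 0.0225), a fold of 1.48. Clone 2 of the same gene stood at -0.03. Leaving out single arrays ended the call of clone 1 in 5 of 10 cases, with an adjusted p of up to 0.0583. Srsf5, another SR protein, had a log2 ratio of 0.49 (limma adjusted p = 0.091) and was above 0 on 10 of 10 arrays without being called. The other 10 SR clones lay between -0.35 and 0.11, and the 13 had a median of -0.07.

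U2AF binds the polypyrimidine tract and the end of the intron and brings in the U2 snRNP. Its clone 2 had log2 ratios from -1.37 through a median of -0.76 to -0.01, below 0 on 10 of 10 arrays, with a mean of -0.74 (SE 0.14, limma adjusted p = 0.00898). This clone was dim, with the DBA/2J pool above the empty spots on 3 arrays and the C57BL/6J pool on 4. Its mean was -0.55 over the 7 arrays of one scan day and -1.17 over the 3 of the other, all 3 with DBA/2J in Cy3. The 2 other clones of U2AF had means of -0.21 and 0.24, so that the clones of this name did not move together. Zrsr1, a relative of a U2AF subunit, had 3 clones between 0.13 and 0.40, none of them called.

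The DEAD and DEAH clones numbered 22, of which 1 was called. Dhx15, the DEAH helicase that takes the spliceosome apart after splicing, had log2 ratios from -1.60 through a median of -0.78 to -0.36 in the non-stressed strains. All 10 arrays were below 0, and the mean was -0.86 (SE 0.14, limma adjusted p = 0.0038), a fold of 1.81. The numerator was above the empty spots on 9 arrays and the denominator on 10. The mean was -1.005 over the 7 arrays of one scan day and -0.51 over the 3 of the other. All 5 arrays with DBA/2J in Cy5 were among the 7, so the scan day and the dye orientation were not separated. As given above, the name of this clone also carries a name of Dhx9, so its gene is not certain. The separate clone of Dhx9 ran from -0.07 to 0.77 in the same comparison. Ints6, a subunit of the Integrator complex that the array calls DEAD/H box 26, had 4 clones from -0.23 to 0.68, and the highest missed the call (limma adjusted p = 0.0561) and was never above the empty spots. The whole group had a median of 0.13.

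Of 13 hnRNP clones, Hnrnph2 was higher and Prmt2 lower in DBA/2J. Hnrnph2 binds runs of G in transcripts and shares most of its sequence with Hnrnph1. Its log2 ratio ran from 0.40 through a median of 0.85 to 1.59, above 0 on 10 of 10 arrays, with a mean of 0.84 (SE 0.14, limma adjusted p = 0.0038), a fold of 1.79. The clone of Hnrnph1 stood at 0.04 in the same comparison, and whether RNA of one gene bound the clone of the other was not tested. Prmt2, an arginine methyltransferase that entered through its old name as an hnRNP methyltransferase, was the brightest clone of the group. It ran from -0.997 through a median of -0.68 to -0.08, below 0 on 10 of 10 arrays. Its mean was -0.65 (SE 0.13, limma adjusted p = 0.0122), a fold of 1.56. The mean was -0.85 with DBA/2J in Cy5 and -0.44 in Cy3. It was -0.74 over the 7 arrays of one scan day and -0.42 over the 3 of the other. Hnrnpd (AUF1), which binds AU-rich mRNA, had a mean of -0.60 that did not pass (limma adjusted p = 0.142), with values from -1.80 to 1.07, and its clone exceeded the empty spots on at most 2 arrays.

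The poly(rC) binding proteins hold KH domains and bind C-rich RNA. Clone 3 of Pcbp2 had the highest mean of all 84 clones in the non-stressed strains, with log2 ratios from 0.70 through 1.25 at the median to 2.11 and a mean of 1.28 (SE 0.17, limma adjusted p = 0.000737). It was above 0 on 10 of 10 arrays, but DBA/2J exceeded the empty spots on 1 array and C57BL/6J on none, so that no fold is given. The other clones of Pcbp2 stood at 0.34, 0.58 (limma adjusted p = 0.057) and -0.27. The study listed clone 3 under Map3k12, a kinase gene that overlaps Pcbp2 in RefSeq, and which of these genes this clone measures was not tested.

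The snRNP proteins, the U2 snRNP complexes SF3a and SF3b and Prpf8, a core protein of the U5 snRNP, gave no call between the strains. The 11 snRNP clones lay between -0.22 and 0.51 with a median of 0.22. The 7 SF3 clones lay between -0.24 and 0.59, also with a median of 0.22. All 4 clones of Sf3b1, which holds the branch point of the intron, were above 0, and the highest, clone 1, did not pass (0.59, limma adjusted p = 0.0743). Its values ran from -0.40 to 2.10, and its mean was -0.01 with DBA/2J in Cy5 and 1.19 with DBA/2J in Cy3. The plot of all members shows the spread in each family and comparison.

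**Figure D1:**
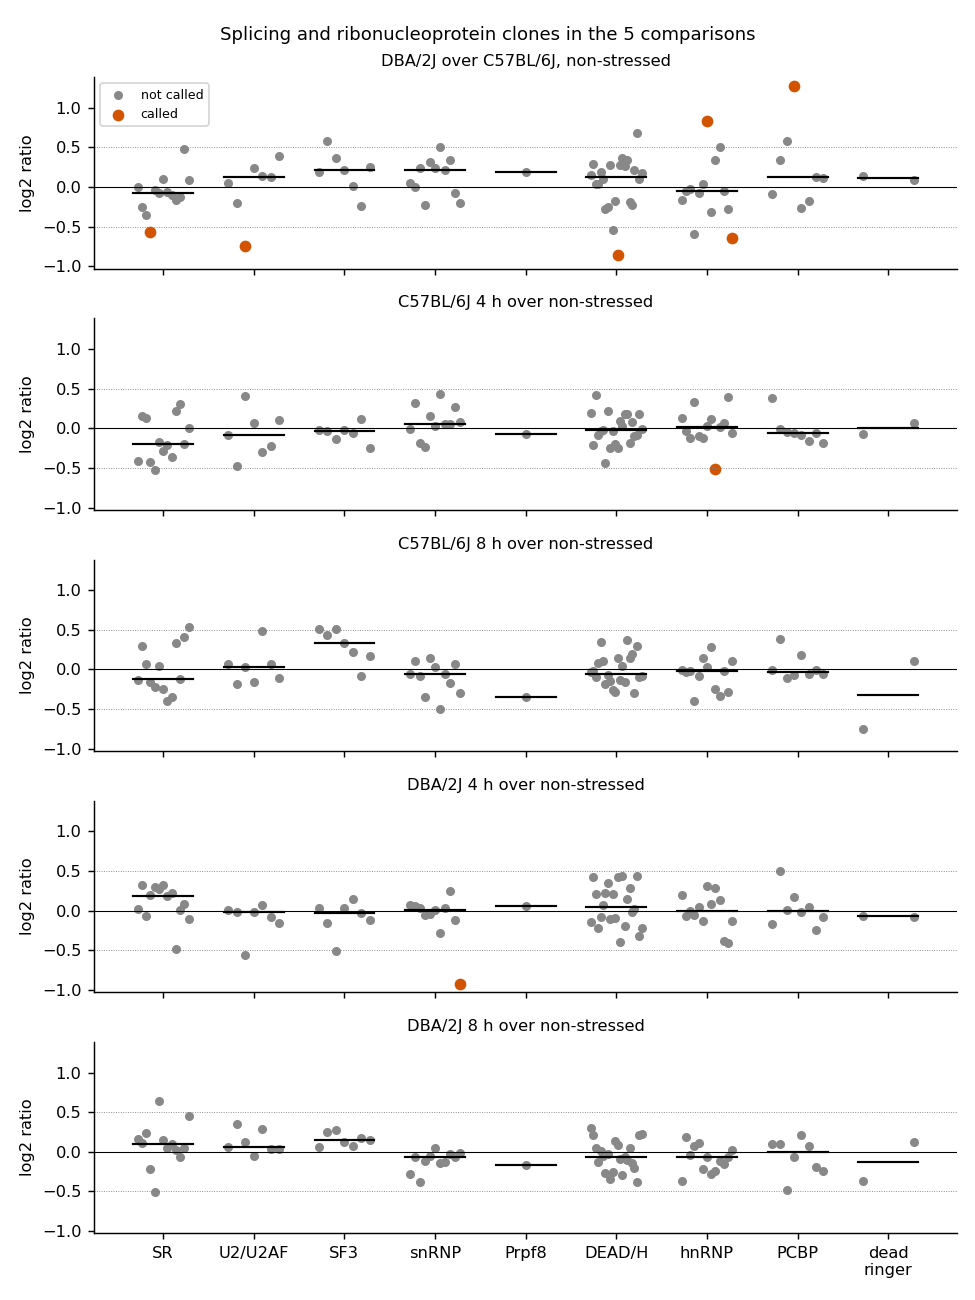
Mean log2 ratio (vertical axis) of each of the 84 clones in the 5 comparisons (panels), by family (horizontal axis); each point is 1 clone over 10 arrays, orange points are called, black lines are medians and dotted lines mark 0.5 either way. Orange points number 6 in the top panel, 1 each in both 4 h panels and 0 in both 8 h panels.

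Clones of the same gene often differed, as the plot of genes with 3 or more clones shows. The clones of Hnrnpk spanned -0.31 to 0.50, those of Pcbp2 -0.27 to 1.28 and those of U2AF -0.74 to 0.24, whereas the 4 clones of Srsf3 lay between -0.10 and 0.11 and the 3 of Zrsr1 between 0.13 and 0.40. Which stretch of its gene each clone holds is not given here, and the cause of the differences between clones was not tested.

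**Figure D2:**
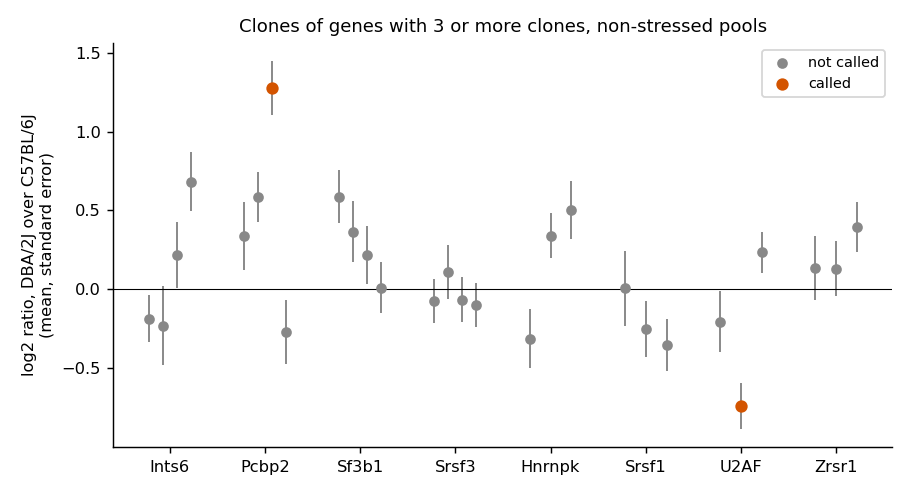
Mean log2 ratio of DBA/2J over C57BL/6J, non-stressed, with its standard error (vertical axis, 10 arrays) for each clone of the names with 3 or more clones (horizontal axis); orange points are called. Only 1 clone of Pcbp2 and 1 of U2AF are called, while their other clones lie nearer to 0 or on its other side.

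In C57BL/6J 4 h after swimming, 1 of the 84 clones was called (1.19%), against 0.289% of all clones. It was clone 2 of Hnrnpk, a KH-domain protein that binds C-rich RNA and acts in splicing and transcription. Its log2 ratio ran from -0.84 through a median of -0.51 to -0.22, below 0 on 10 of 10 arrays, with a mean of -0.51 (SE 0.08, limma adjusted p = 0.0242), a fold of 1.42. The mean was -0.72 with the stressed pool in Cy5 and -0.30 in Cy3. The call was lost when any 1 of the 10 arrays was left out, with an adjusted p of up to 0.0916. The 2 other clones of Hnrnpk stood at 0.11 and 0.02, and both channels of clone 2 were above the empty spots on all arrays.

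The SR proteins lay low in the same comparison without a call among them. With no adjustment and p under 0.05, 7 of their 13 clones lay below 0 and 1 above, against 6.30% of all clones below and 5.97% above, and their median was -0.20, against 0.00 over all clones. Clone 2 of Srsf2 ran from -0.93 through -0.59 to -0.04, with a mean of -0.52 (limma adjusted p = 0.0771), and clone 1 from -0.75 through -0.46 to 0.05, with a mean of -0.42 (limma adjusted p = 0.102). The 4 clones of Srsf3 (SRp20), the smallest of these SR proteins, stood at -0.17, -0.29, -0.22 and -0.37. The exception at this p was clone 2 of Srsf4 (SRp75) at 0.31, and Srsf9 stood at 0.00. Clones of 1 gene share their target, so these 13 clones stand for 6 names.

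In DBA/2J 4 h after swimming, 1 clone was again called (1.19%, against 0.153% of all clones), and it was Snrpn. Snrpn encodes SmN, the form of the SmB protein made in brain, from an imprinted gene. Its log2 ratio ran from -1.39 through a median of -0.85 to -0.36, below 0 on 10 of 10 arrays, with a mean of -0.92 (SE 0.13, limma adjusted p = 0.0105), a fold of 1.89. Both pools were above the empty spots on all 10 arrays, and the call held when each array was left out. The clone of Snrpb, which encodes the close relative SmB, stood at -0.06, and the 9 other snRNP clones lay between -0.28 and 0.25. Of the SR clones, 10 of 13 were above 0 with a median of 0.18. At an unadjusted p under 0.05 there were 0 of them above and 1 below 0, against 5.25% and 5.42% of all clones. In the same comparison 1 of 7 PVN marker clones was lower, that of Trh, at -0.75, and its part in the members' values was not tested.

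**Figure D3:**
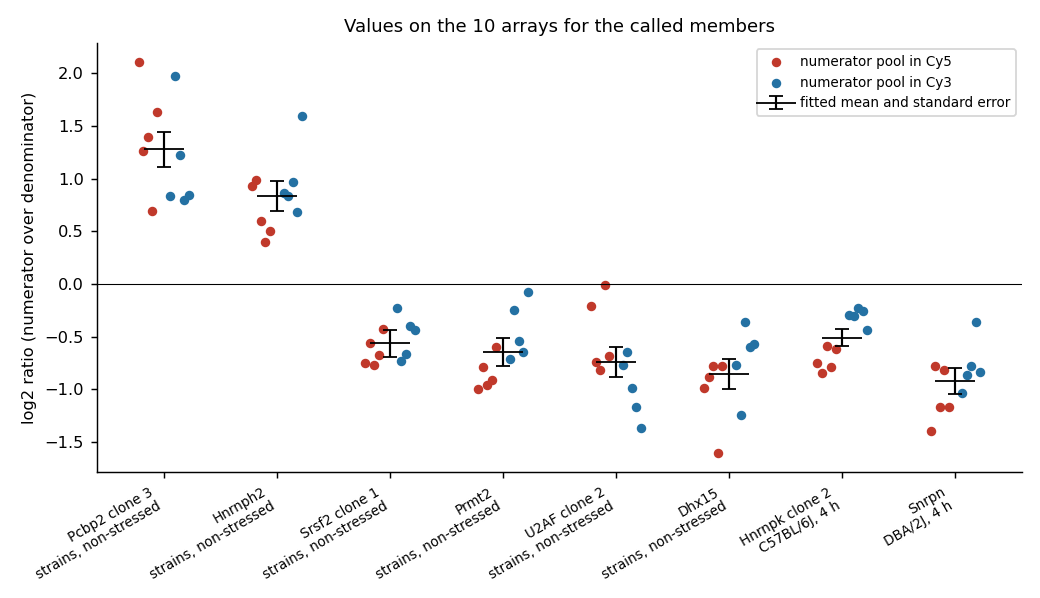
Log2 ratio on each of the 10 arrays (points, vertical axis) for the 8 members called in a comparison (horizontal axis), coloured by the dye of the numerator pool, with the fitted mean and its standard error in black. All arrays of a clone lie on the same side of 0, with 1 array of clone 2 of U2AF at -0.01.

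At 8 h no member was called in either strain. In C57BL/6J limma called 0.0832% of all clones. With no adjustment and p under 0.05, 6 members (5.04% of all clones) lay above and 7 (4.24% of all clones) below 0. In DBA/2J it called 0.158% of all clones, with 4 members above 0 (6.14% of all clones) and 7 below (5.90% of all clones) at that p. The methods' t-test, Benjamini-Hochberg adjusted and with the same fold, also called 0 members in both. In C57BL/6J the SF3 clones had a median of 0.33, against -0.01 over all clones, and 6 of 7 were above 0. Clone 2 of Sf3b1 ran from 0.15 through 0.45 to 1.15, above 0 on 10 of 10 arrays, with a mean of 0.51 (limma adjusted p = 0.219), and the other clones of the gene stood at 0.43, 0.33 and 0.22. In DBA/2J at 8 h, 7 of 7 SF3 clones were above 0, between 0.07 and 0.28, with a median of 0.15. These 7 clones stand for 3 names, and 1 of them had an unadjusted p under 0.05. The snRNP clones went the other way there, with 10 of 11 below 0, a median of -0.07 and 0 at that p. Of the 28 neuron clones 1, of the synaptic protein Snap25, was called at 8 h, higher in C57BL/6J at 0.89 and lower in DBA/2J at -0.56. At an unadjusted p under 0.05, 11 of the 28 lay below 0 and 1 above in DBA/2J, against 5.90% and 6.14% of all clones. Their median there was -0.13. In C57BL/6J 1 lay below and 1 above at that p. Of 7 blood cell clones in DBA/2J, 3 lay above 0 and 0 below at that p, with a median of 0.40. The part of these markers in the members' values was not tested.

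Whether the strains responded differently was tested as the difference of the responses over 20 arrays, DBA/2J minus C57BL/6J. At 4 h 6 of the 84 clones were called (7.14%), against 2.34% of all clones, 4 of them higher (1.16% of all clones) and 2 lower (1.19%). Both clones of Srsf2 were among them. Clone 1 stood at -0.42 in C57BL/6J and 0.20 in DBA/2J, a difference of 0.62 (SE 0.14, limma adjusted p = 0.0153), and clone 2 at -0.52 and 0.30, a difference of 0.82 (SE 0.18, limma adjusted p = 0.0188). In DBA/2J clone 1 ran from -0.25 to 0.24 with the stressed pool in Cy5 and from 0.16 to 0.57 in Cy3. Clone 2 ran from -0.68 to 0.57 in Cy5, and its lowest value in Cy3 was 0.33. The DBA/2J means above 0 of both clones thus rested mainly on the arrays in Cy3. The 4 clones of Srsf3 differed in the same direction by 0.40 to 0.61 without being called. In DBA/2J clones 1, 3 and 4 of Srsf3 lay on both sides of 0 in Cy5 and above 0 on every array in Cy3. Clone 2 of Srsf3 lay on both sides of 0 in both orientations. With no adjustment and p under 0.05, 6 of the 13 SR clones lay above 0 and 1 below, against 6.87% and 6.77% of all clones, and their median was 0.40. The lower one was clone 1 of Srsf4, with a difference of -0.70 (limma adjusted p = 0.146), so that not all SR genes moved one way.

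Clone 2 of Hnrnpk stood at -0.51 in C57BL/6J and 0.29 in DBA/2J at 4 h, a difference of 0.80 (SE 0.13, limma adjusted p = 0.00134), while its clones 1 and 3 differed by -0.03 and 0.11. In DBA/2J clone 2 ran from -0.28 to -0.04 with the stressed pool in Cy5 and from 0.41 to 0.99 in Cy3. Dhx15 stood at -0.25 and 0.42, a difference of 0.67 (SE 0.17, limma adjusted p = 0.0429), and in DBA/2J its mean was -0.13 with the stressed pool in Cy5 and 0.97 in Cy3. The call of Dhx15 held in 3 of the 20 cases in which an array was left out. Snrpn stood at 0.08 and -0.92, a difference of -0.999 (SE 0.14, limma adjusted p = 0.000488), the most negative of the 84 clones. Clone 2 of U2AF stood at 0.40 and -0.56, a difference of -0.97 (SE 0.16, limma adjusted p = 0.00242), against 0.47 and -0.08 for the other clones of that name. In the same test 3 of 32 astrocyte clones (2 of Glul and 1 of Aldoc), 2 of 28 neuron clones (Syn1 and Eno2) and the clone of Trh were lower, and their part in the members' values was not tested.

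**Figure D4:**
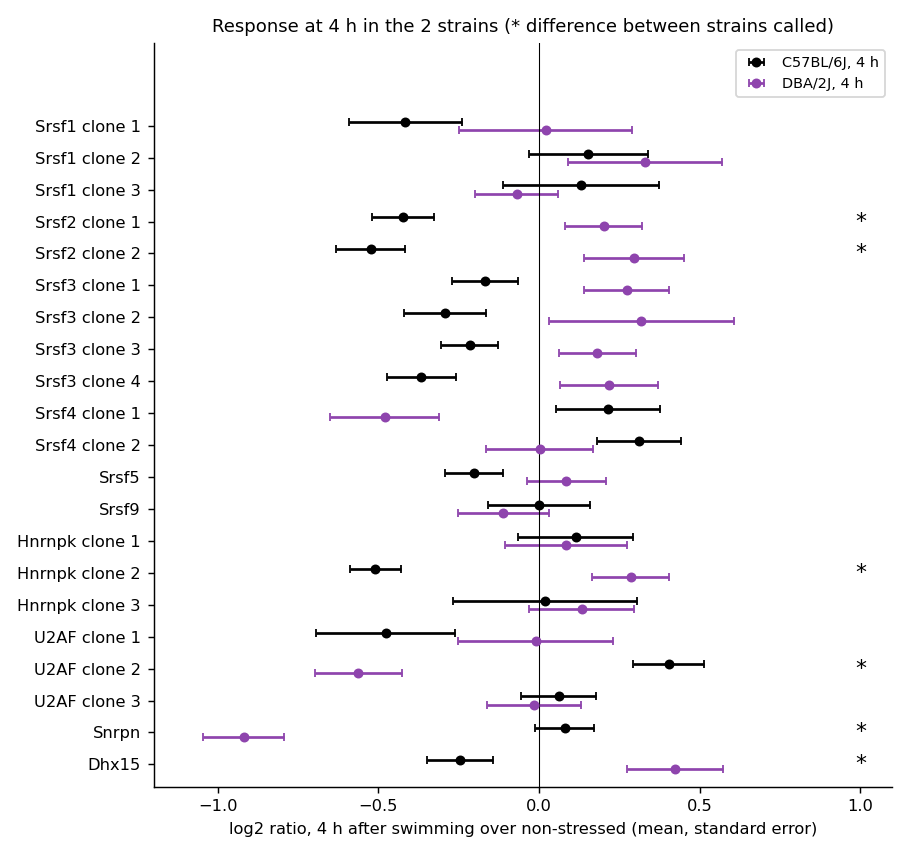
Mean log2 ratio 4 h after swimming over non-stressed, with its standard error (horizontal axis, 10 arrays each), in C57BL/6J (black) and DBA/2J (purple) for the 13 SR clones and for clones of Hnrnpk, U2AF, Snrpn and Dhx15 (vertical axis); stars mark clones called for the difference between strains. For both clones of Srsf2 and all 4 of Srsf3 the C57BL/6J value lies below 0 and the DBA/2J value above it.

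At 8 h no member was called for a strain difference, against 0.600% of all clones. With no adjustment and p under 0.05, 5 lay above 0 and 3 below, against 5.04% and 5.36% of all clones. Clones 2 to 4 of Srsf3 were higher in DBA/2J by 0.40, 0.45 and 0.45 at that p, with limma adjusted p-values of 0.353, 0.189 and 0.308. In the same test 1 neuron clone (Snap25, -1.45) and 1 astrocyte clone (Glul, 0.66) were called, and their part in the members' values was not tested.

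Between 8 h and 4 h in C57BL/6J, 2 members were called (2.38%), against 0.495% of all clones, 1 higher (0.381% of all clones) and 1 lower (0.114%). Snrpd2, which encodes the Sm ring protein SmD2, stood at 0.43 at 4 h and -0.49 at 8 h, a difference of -0.92 (SE 0.18, limma adjusted p = 0.0196). The values had run from -0.13 through 0.35 to 1.27 at 4 h and from -1.23 through -0.49 to 0.10 at 8 h. Srsf5 stood at -0.20 and 0.41, a difference of 0.62 (SE 0.13, limma adjusted p = 0.0327), and its call held in 8 of the 20 cases in which an array was left out. Neither response was called at one time alone. Clone 2 of Sf3b1 just missed the call at 0.65 (limma adjusted p = 0.0504). A clone of Snap25 was higher at 8 h than at 4 h by 0.76, and its part in the members' values was not tested.

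In DBA/2J, 4 members were called between 8 h and 4 h (4.76%), against 1.00% of all clones, 3 of them higher (0.561% of all clones) and 1 lower (0.443%). Snrpn went from -0.92 to -0.01, a difference of 0.90 (SE 0.14, limma adjusted p = 0.00403), with 5 of 10 arrays above 0 at 8 h. Clone 2 of U2AF went from -0.56 to 0.12, a difference of 0.68 (SE 0.15, limma adjusted p = 0.0365), and clone 2 of Sf3b1 from -0.51 to 0.28, a difference of 0.79 (SE 0.18, limma adjusted p = 0.0395). Clone 2 of Srsf2 went from 0.30 to -0.51, a difference of -0.81 (SE 0.20, limma adjusted p = 0.0495). Clone 2 of Sf3b1 and clone 2 of Srsf2 were above the empty spots on none of the 10 arrays at 8 h. Of these calls, that of Snrpn held in all 20 cases in which an array was left out, those of U2AF, Sf3b1 and Srsf2 in 7, 6 and 1. In the same test 1 clone each of Trh (0.81) and Aldoc (0.70) was higher and 1 of Snap25 (-0.62) lower, and their part in the members' values was not tested.

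Partners of these genes outside the named families were taken from a list of 155 genes by role, of which 78 were found on the array with 129 clones. Between the non-stressed strains 5 of the 129 were called (3.88%, against 3.62% of all clones). Higher in DBA/2J were 3, of Smn1 (0.84), which assembles Sm rings, Khdrbs1 (0.73), an RNA-binding signalling protein, and Fxr1 (0.92), and 2 were lower, of the SR kinase Srpk2 (-0.54) and of Phf5a (-0.54), a subunit of SF3b. The other clones of Smn1 (1), Khdrbs1 (1), Fxr1 (2) and Srpk2 (4) were not called. In C57BL/6J at 4 h, Zranb2, an SR-like zinc finger protein, was lower at -0.96 (SE 0.08, limma adjusted p = 0.00141), and 1 of 5 clones of Qk, a splicing regulator of glia, at -1.06 (1.55%, against 0.289% of all clones). In DBA/2J at 4 h the SR-like coactivator Tra2b was higher at 0.71 (0.775%, against 0.153% of all clones). None was called at 8 h in either strain, where an unadjusted p under 0.05 took 4 above and 4 below 0 in C57BL/6J and 8 and 4 in DBA/2J, against 5.04%, 4.24%, 6.14% and 5.90% of all clones.

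For the strain difference at 4 h, 7 partner clones were called (5.43%, against 2.34% of all clones), 6 higher and 1 lower (1.16% and 1.19% of all clones). The higher ones were Zranb2 (1.49), Tra2b (0.86), 2 of 4 clones of the neuronal Elavl2 (0.74 and 0.58), Mbnl1 (0.81) and 1 of 4 of Matr3 (0.53), and the lower one was 1 of 2 of Celf2 (-0.56). Zranb2 also differed between 8 h and 4 h in C57BL/6J by 1.11, and Tra2b in DBA/2J by -0.67. The median over the 129 clones was -0.04 for the strain difference at 4 h, against 0.00 over all clones. Assembly, capping, 3′ end and export genes gave no call after swimming in either strain.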

How the data were processed

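The authors deposited for each of 24192 spots on 50 arrays the scanned intensity of Cy5 and Cy3 with its local background, quantified with fixed circles. A deposited table of processed log2 ratios of 19047 spots, which the authors normalized by a procedure described elsewhere, held 63 of the 84 members and served as an alternative. The dyes, not the channel numbers, set the direction, since Cy5 was the first channel on 46 arrays and Cy3 on 4. No columns of other series were met.

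Here the spot background was corrected by normexp (offset 50), and each array was normalized by global loess, in which the 1368 control spots had no weight. Each comparison was fitted with limma 3.58.1 (lmFit, then eBayes; run under R 4.3.3), dye orientation being a covariate. Contrasts of comparisons used their 20 arrays. P-values were Benjamini-Hochberg adjusted over 22824 clones. The fit was tested on simulated data. Tables and plots came from matplotlib 3.10.9, numpy 2.4.6, pandas 2.3.3 and Python 3.11.15. Precision is limited by the number of arrays. The SE of a log2 ratio had a median of 0.158 to 0.186 over all clones. Replicate numbers did not pair arrays (correlations from -0.016 to 0.021).

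Named were members called in a comparison or difference, the 10 with the smallest p per comparison, other clones of those genes and the brightest of each family, 46 clones, and the text gives the ones its results turn on. Members, lists and this rule were chosen with earlier results of these data and the study's lists known. Symbols were assigned by hand from the clone names. Marker lists of microglia, endothelium and choroid plexus with ependyma gave 0 calls in all tests, with medians between -0.08 and 0.22. The alternatives were print-tip loess, median centring, no background subtraction, 2 filters on dim clones (that on the empty spots chosen after seeing the data), no dye term, adjusted p alone, the methods' t-test, the processed values, 1 fit of all 50 arrays, blocks for scan day or replicate number, single or averaged orientations, and each array left out. Values of hormones and real-time PCR were not analysed here, and the result of 1 other gene is not reported here.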

Additional observations from a re-analysis of the deposited data

Results flagged for a closer look

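Single arrays stood apart from the other 9 in 3 of the 60 pairs of clone and comparison that were checked. Chance alone singles out about 1 in 20 such pairs. Hnrnph2 had a log2 ratio of 1.59 on 1 array between the non-stressed strains, with the nearest array at 0.99. Clone 2 of U2AF had -0.62 on 1 array in C57BL/6J at 8 h, with the nearest at -0.09. Prmt2 had 0.39 on 1 array in DBA/2J at 8 h, with the nearest at 0.07.

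Responses that differed between strains or times, by a limma test of the difference itself, concerned 12 pairs of clone and test. At 4 h, DBA/2J minus C57BL/6J, they were 0.67 for Dhx15, 0.80 for clone 2 of Hnrnpk, -0.999 for Snrpn, 0.62 for clone 1 and 0.82 for clone 2 of Srsf2, and -0.97 for clone 2 of U2AF. Between 8 h and 4 h in C57BL/6J they were -0.92 for Snrpd2 and 0.62 for Srsf5. Between 8 h and 4 h in DBA/2J they were 0.79 for clone 2 of Sf3b1, 0.90 for Snrpn, -0.81 for clone 2 of Srsf2 and 0.68 for clone 2 of U2AF. The arrays set against each other in these tests were scanned on different days, so the scan day cannot be told apart from the strain or the time.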

How the results depend on the processing

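No called value changed sign under an alternative. Values that were not called did, such as Dhx15 in DBA/2J at 4 h, from 0.42 to -0.13 with the stressed pool in Cy5 alone. Called members numbered 6 (strains), 1 (C57BL/6J, 4 h), 0 (C57BL/6J, 8 h), 1 (DBA/2J, 4 h) and 0 (DBA/2J, 8 h). Of all clones, 826, 66, 19, 35 and 36 were called in that order. Either dye orientation alone gave 0 members in each, and orientations averaged gave 1, 0, 0, 0 and 0. Of all clones, the numerator in Cy5 alone gave 35, 0, 1, 0 and 0. The numerator in Cy3 alone gave 140, 0, 42, 0 and 0 of all clones, and orientations averaged 47, 0, 2, 1 and 0. All 50 arrays in one fit gave 10, 2, 1, 3 and 2 members, beside 1234, 125, 197, 355 and 114 of all clones. Leaving out clones dimmer than the median left 53, 55, 52, 50 and 57 members. Of these it called 9, 2, 1, 2 and 1, beside 1102, 173, 108, 258 and 152 of all clones. Between the strains, the filter on the empty spots left 8 members (9.52%) and 6.12% of all 22824 clones. It called 2 of these 8 members and 344 of all the clones left. For C57BL/6J at 4 h, median centring and no dye term gave 0 members and the methods' t-test 2. Of all clones these gave 56, 50 and 103. For DBA/2J at 4 h the t-test and the scan day as a block gave 2 members, beside 84 and 290 of all clones. The scan day could not be a block for C57BL/6J at 4 h, scanned on 1 day.

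For the differences, 6 (strains at 4 h), 0 (strains at 8 h), 2 (times, C57BL/6J) and 4 (times, DBA/2J) members were called. Of all clones, 535, 137, 113 and 229 were called. The replicate block gave 2, 0, 0 and 0 members, beside 127, 30, 15 and 0 of all clones, although the numbers do not pair the arrays. Arrays correlated best with their own number in 0 or 1 of 10 cases. No dye term gave 3, 0, 1 and 1, beside 274, 85, 44 and 74 of all clones. All 50 arrays gave 10 for strains at 4 h, beside 652 of all clones. Median centring gave 1 for times in C57BL/6J, beside 96 of all clones.

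Leaving out each array gave 5 to 7, 0 to 0, 0 to 0, 1 to 1 and 0 to 0 members in the 5 comparisons and 5 to 6, 0 to 0, 1 to 2 and 1 to 3 in the differences. The cause of these changes was not tested. Dim spots limit most members.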
